A study of Mus musculus with 18 samples.

Results

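The mouse genes of collagens, laminins and matrix proteases were followed here across 6 populations of sorted CD4+ T cells. Genes were taken by symbol, as collagen chains (Col), laminin chains (Lama, Lamb and Lamc), matrix metalloproteinases (Mmp), their tissue inhibitors (Timp), and the Adam, Adamts and Adamtsl families. The table held 80 such genes, and the 54 whose log2 values averaged at least 3 over all libraries are described, out of 13190 genes at that level and 15402 in all. They comprised 12 of 25 collagen genes, 5 of 7 laminin genes, 10 of 13 Mmp genes, 2 of 2 Timp genes, 16 of 19 Adam genes, 7 of 10 Adamts genes and 2 of 4 Adamtsl genes. The member nearest the limit from above was Col1a2 with a mean of 3.12, and the nearest gene left out was Col8a2 with a mean of 2.92.

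Collagens and laminins are secreted proteins that assemble into the extracellular matrix, collagens as triple helices of alpha chains and laminins as trimers of 1 alpha, 1 beta and 1 gamma chain in basement membranes. Matrix metalloproteinases are zinc proteases that cut matrix proteins and many cytokines and receptors, and Timp proteins block them. Adam proteins are anchored in the membrane, where the active ones shed the outer parts of other surface proteins, whereas Adamts proteases are secreted and bind matrix. In lymph nodes most matrix is made by stromal cells. T cells are known for using proteases of these families in shedding and in crossing basement membranes.

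All cells came from female mice of the strain given as C57/BL6 Foxp3Timer Foxp3-IRES-GFP, so every population carried both the Timer reporter and the GFP allele of Foxp3. Mice had been sensitised with 3% oxazolone, a skin hapten, on the abdomen, and draining lymph nodes were taken on day 5. No unsensitised mice were among the libraries. Timer is a fluorescent protein made when Foxp3, the gene of the regulatory T-cell factor, is transcribed, and its blue form matures to red. Tnaive cells were CD44lo GFP- Timer- and labelled naive, and Teff cells were CD44hi GFP- Timer- and labelled activated effector. Pers1, Pers2, PAt and Arrested cells were GFP+ Foxp3 expressers, labelled de novo, maturing, mature and decaying. In the text, Pers1 and Pers2 together are the persistent expressors, by their sustained Foxp3 transcription. Each population had 3 libraries, 18 in all, each from pooled mice, so p-values measure the spread between these pools only.

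The deposited values are log2 normalised counts in a form that draws genes with few reads together, so differences of low genes are understated. Populations were compared with limma in 1 model of all 18 libraries, and a gene was called at an adjusted p under 0.05 with an absolute log2 fold change over 1. Read counts were not used here, so the depth is unknown. The 5 T-cell markers measured (Cd3e, Cd3d, Cd3g, Cd4 and Lck) were high in all 18 libraries, with a summed level of 91580 to 138300 on the linear scale of normalised counts. Of 10 markers of lymph node fibroblasts, 1 was measured here, Pdgfrb, at 0.37 to 0.52 on the log2 scale. The summed levels of dendritic cell, macrophage and B-cell markers were highest in Teff libraries, and that of epithelial markers in Pers2 libraries. Marker values are given further below. In such bulk samples, fewer cells of a type and less RNA per cell cannot be told apart.

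The first question was which members were high in every library of a population and which in single libraries. A member counted as high in every library when the lowest library of a population lay at least 1 log2 unit above the highest library of another. That held for 23 of the 54 members, against 18.5% of all tested genes. A member not counted in that way was taken as high in a single library when some library lay at least 1 above the median of all 18 but no population had all its libraries there. Only Adamtsl2 met this, 1 of 54 against 1.24% of tested genes, and the other 30 members were even, against 80.2%. Within a population, 0 of 54 members had a range of 1 or more among the 3 libraries, against 1.23% of tested genes. The largest such range was that of Adam11 in Pers1, 0.88, and the median of the members' largest ranges was 0.405, against 0.32 over all tested genes. Among the 23 members high in every library, the highest population was Pers2 for 9, Teff for 5, PAt for 5, Tnaive for 3, Pers1 for 1 and Arrested for 0. Over the 2442 tested genes with this pattern the shares were 31.8%, 22.3%, 14.1%, 18.6%, 11.6% and 1.64% in the same order. Tnaive was the lowest population for 12 of these 23, against 57.6% of the 2442.

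**Figure D1:**
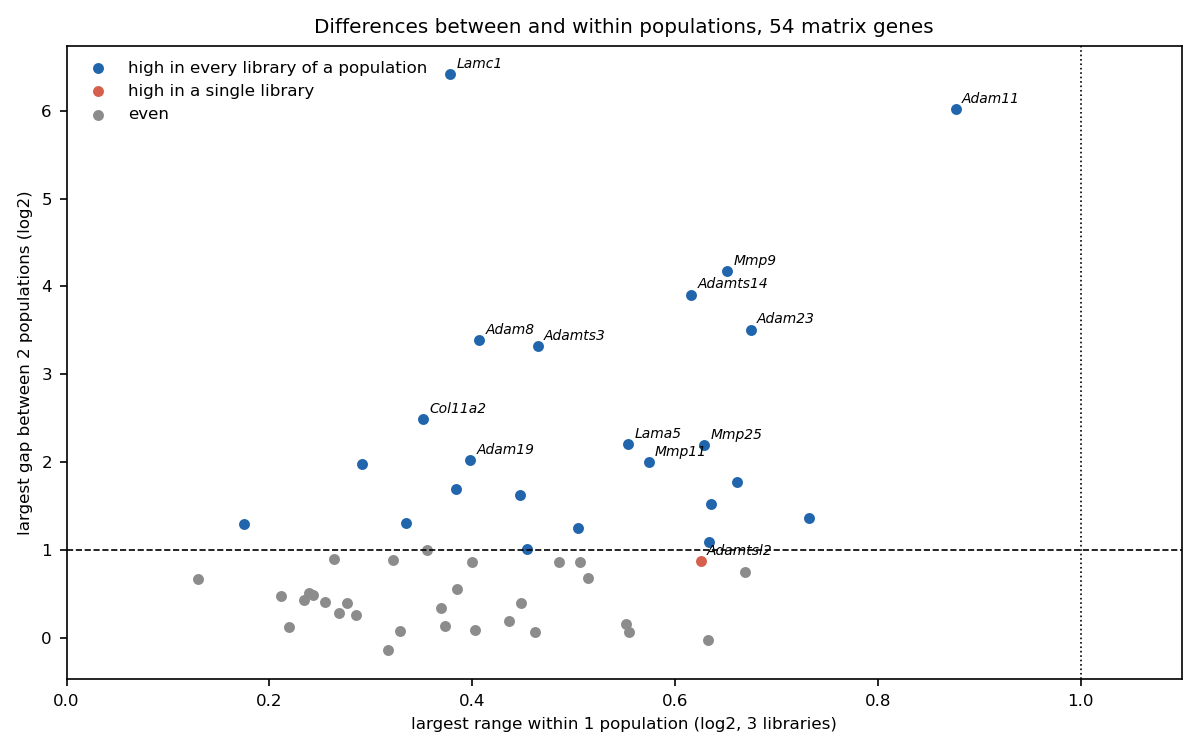
Largest gap between the libraries of any pair of populations (vertical, log2) against the largest range among 3 libraries of 1 population (horizontal, log2) for the 54 members, coloured by pattern, with dashed and dotted lines at 1. Lamc1 and Adam11 stand highest at gaps of 6.41 and 6.02, and all 54 points lie left of the dotted line.

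In the comparison of Teff with Tnaive cells, 17 members were called, where 11.2% of all tested genes were called. Of these 11 were higher and 6 lower in Teff, against 8.88% and 2.28% of tested genes. The persistent expressors differed from PAt and Arrested cells at 12 members, against 7.51% of tested genes, and 5 were higher and 7 lower, against 4.74% and 2.77%. Against Teff cells they differed at 12 members as well, against 8.31%, and 7 were higher and 5 lower, against 4.28% and 4.03%. PAt and Arrested cells differed from Tnaive cells at 13 members, against 7.9%, and 10 were higher and 3 lower, against 6.63% and 1.27%. Between Pers2 and Pers1, 2 members were called, Lama5 and Mmp9, both higher in Pers2, against 0.19% of tested genes (0.144% higher and 0.0455% lower). Between Arrested and PAt, limma called 0 members, against 0.121% of tested genes (0.0455% higher and 0.0758% lower). Without the limit on the fold change, 38, 38, 37, 33, 8 and 7 members passed in the order of these comparisons, against 59.0%, 70.9%, 58.7%, 50.7%, 10.6% and 5.04% of tested genes. In all, 25 members were called in at least 1 of the 6 comparisons and 29 in none, where 17.7% of all tested genes were called in at least 1. The counts by family given with the genes stand against the same share. The median log2 fold change of the 54 members lay near 0 in each comparison, from -0.03 between Arrested and PAt to 0.10 between PAt and Arrested together and Tnaive.

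**Figure D2:**
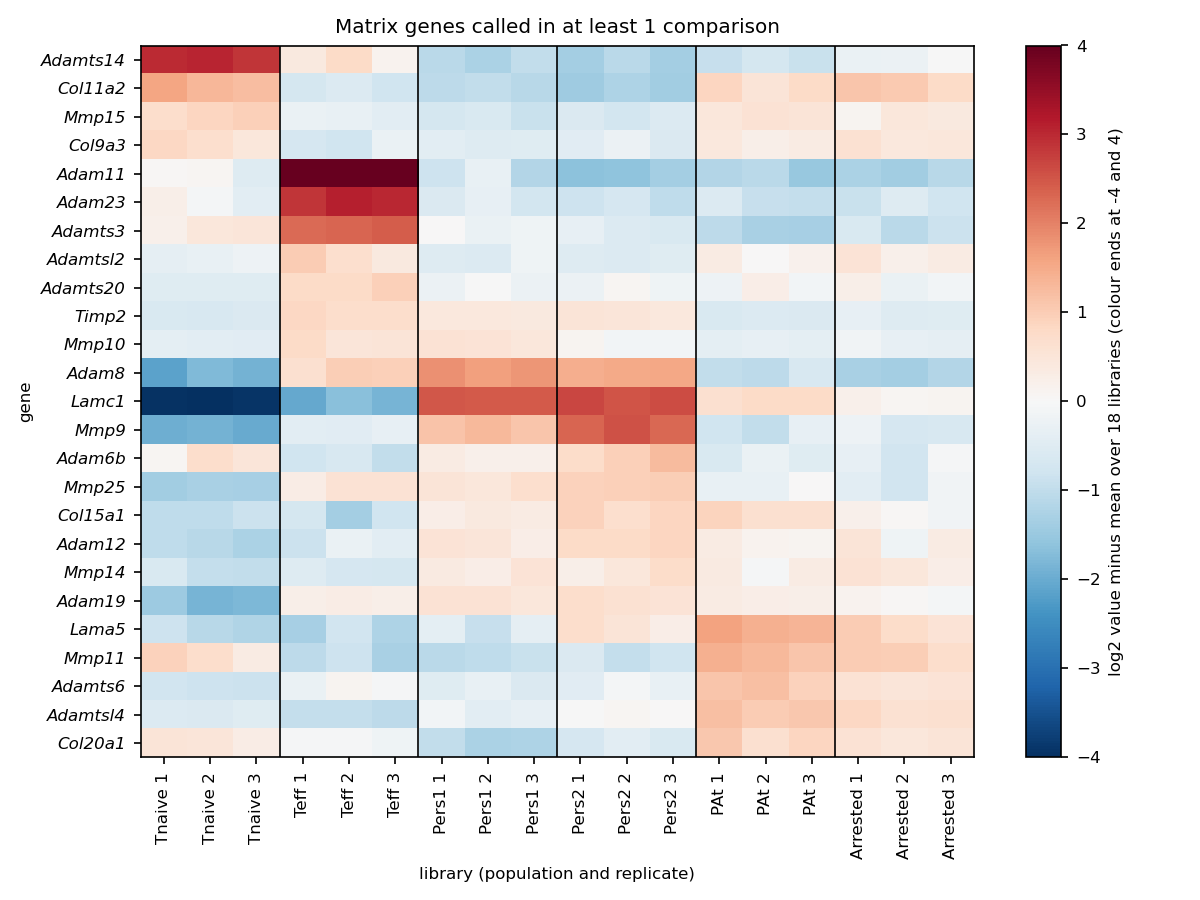
Values of the 25 called members (rows) in the 18 libraries (columns, lines between populations), as the log2 value minus the mean of the gene over all libraries. Adam11, Adam23 and Adamts3 are high in the 3 Teff libraries alone, Lamc1, Adam8 and Mmp9 are highest in the 6 persistent libraries, and Lama5, Mmp11, Adamts6 and Adamtsl4 are highest in PAt libraries.

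Of the 5 laminin genes, 2 were called in some comparison. Lamc1 encodes the gamma 1 chain found in most laminin trimers, and lies on chromosome 1 of GRCm38 from 153218922 to 153332786 on the minus strand. Lamc1 was at 5.92, 5.60 and 5.97 (Tnaive), 7.84, 8.22 and 8.02 (Teff), 12.35, 12.32 and 12.32 (Pers1), 12.53, 12.38 and 12.48 (Pers2), 10.51, 10.64 and 10.62 (PAt), 10.07, 9.96 and 9.99 (Arrested). No populations overlapped, and the means of Pers2 and Tnaive, the highest and the lowest, differed 99.5-fold. Pers2 and Pers1 lay next to each other, with all Pers2 libraries slightly above, and their difference was not called (log2 fold change 0.14, standard error 0.09, adjusted p = 0.413). Lamc1 rose in Teff against Tnaive (log2 fold change 2.19, standard error 0.09, adjusted p = 2.31e-14) and in PAt and Arrested against Tnaive (log2 fold change 4.47, standard error 0.08, adjusted p = 1.65e-20). It was higher again in the persistent expressors than in PAt and Arrested cells (log2 fold change 2.10, standard error 0.07, adjusted p = 1.53e-16) and than in Teff cells (log2 fold change 4.37, standard error 0.08, adjusted p = 5.82e-20).

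Lama5, the alpha 5 chain of many vessel and lymph node basement membranes, had another order. Lama5 was at 5.19, 4.93 and 4.84 (Tnaive), 4.71, 5.26 and 4.79 (Teff), 5.65, 5.11 and 5.67 (Pers1), 6.73, 6.56 and 6.29 (Pers2), 7.66, 7.44 and 7.40 (PAt), 7.05, 6.77 and 6.59 (Arrested). PAt libraries were the highest, Tnaive, Teff and Pers1 libraries overlapped at the low end, and Pers2 libraries lay above Pers1 libraries. Lama5 rose in PAt and Arrested against Tnaive (log2 fold change 2.16, standard error 0.15, adjusted p = 7.31e-11). It was lower in the persistent expressors than in PAt and Arrested (log2 fold change -1.15, standard error 0.12, adjusted p = 3.53e-08), although Pers2 and Arrested libraries overlapped. It was higher in the persistent expressors than in Teff (log2 fold change 1.08, standard error 0.15, adjusted p = 2.64e-06), with overlap between Pers1 and Teff libraries. The rise from Pers1 to Pers2 (log2 fold change 1.05, standard error 0.17, adjusted p = 0.000439) was no longer called without Pers2 replicate 1 (log2 fold change 0.94) or without Pers1 replicate 2 (0.86). The remaining laminin genes were called in no comparison. Population means of Lamb3 went from 5.81 in Teff to 6.87 in Pers2, those of Lama3 from 3.19 in Tnaive to 3.75 in Arrested, and those of Lamb2 from 3.40 to 3.44.

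**Figure D3:**
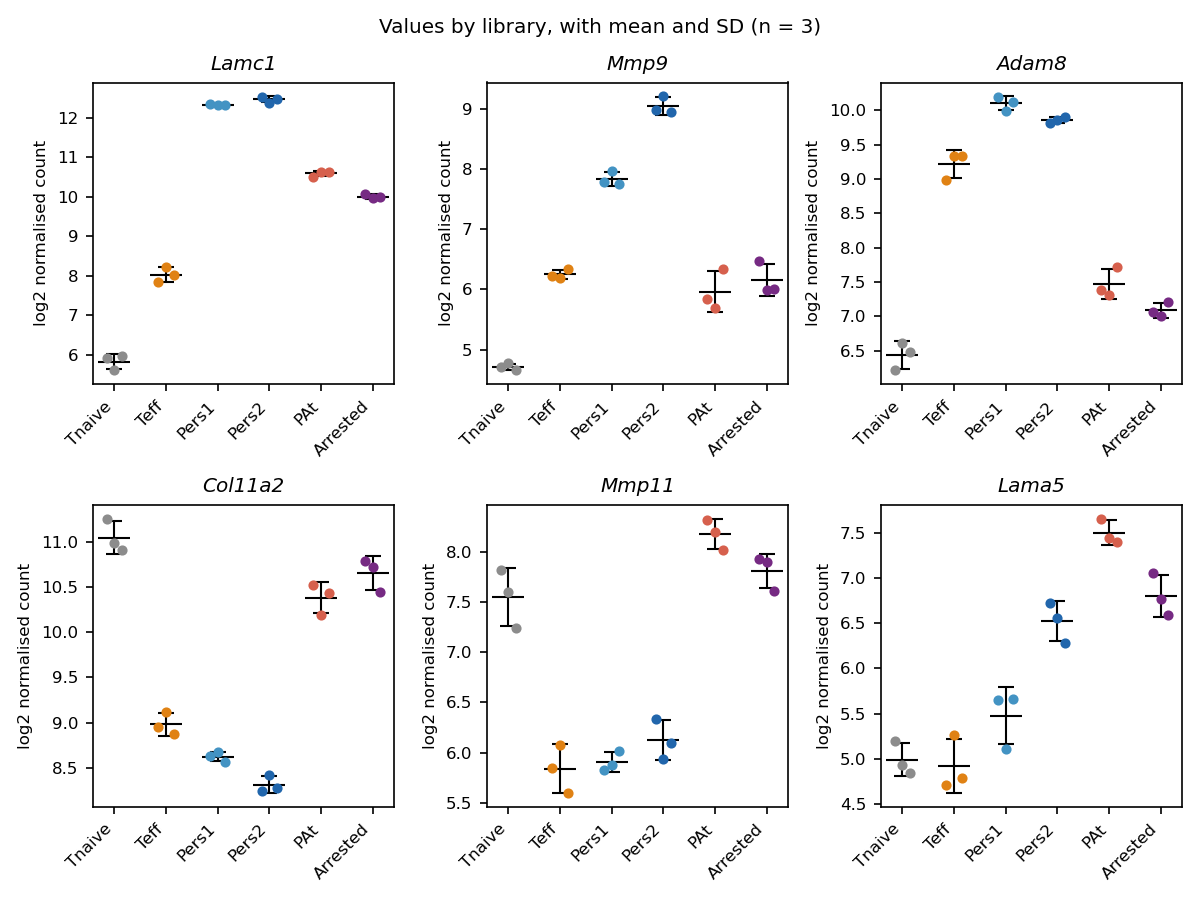
Log2 normalised counts of 6 members in each library (points) by population, with the mean and SD of 3 libraries (bars); the vertical axes differ and do not start at 0. Lamc1, Mmp9 and Adam8 are highest in Pers1 or Pers2, Col11a2 and Mmp11 are low in Teff, Pers1 and Pers2 alike, and Lama5 is highest in PAt.

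Of the 12 collagen genes, 4 were called in some comparison. Col11a2, the alpha 2 chain of the cartilage collagen XI, lies on chromosome 17 from 34039437 to 34066685. Col11a2 was at 11.25, 10.98 and 10.90 (Tnaive), 8.95, 9.12 and 8.87 (Teff), 8.63, 8.67 and 8.57 (Pers1), 8.24, 8.42 and 8.28 (Pers2), 10.52, 10.19 and 10.44 (PAt), 10.79, 10.72 and 10.44 (Arrested). Tnaive libraries were the highest, PAt and Arrested libraries followed, and those of Teff, Pers1 and Pers2 were all lower, the highest of them at 9.12. Col11a2 fell in Teff against Tnaive (log2 fold change -2.07, standard error 0.11, adjusted p = 5.52e-13) and was lower by nearly the same amount in the persistent expressors than in PAt and Arrested (log2 fold change -2.05, standard error 0.08, adjusted p = 1.88e-15). Of 5 skeletal muscle markers 4 were measured, with a summed level of 575.8 to 704.8 in Tnaive and 290.6 to 346.2 in Teff. The sum was 362.5 to 475.0 in Pers1, 360.6 to 392.2 in Pers2, 455.1 to 515.3 in PAt and 505.7 to 585.1 in Arrested. The part of muscle cells in the Col11a2 values was not tested. Col9a3, a chain of collagen IX, was at 7.57, 7.41 and 7.19 (Tnaive), 6.09, 5.96 and 6.47 (Teff), 6.33, 6.24 and 6.26 (Pers1), 6.29, 6.51 and 6.16 (Pers2), 7.18, 6.97 and 7.07 (PAt), 7.37, 7.18 and 7.21 (Arrested). It fell in Teff against Tnaive (log2 fold change -1.22, standard error 0.13, adjusted p = 1.03e-07), and the Teff libraries lay below all Tnaive libraries. Its difference between persistent expressors and PAt and Arrested, -0.87 on the log2 scale, did not reach the limit. Exons of Col9a3 share 234 bp with Tcfl5 on the opposite strand, and the sources used here do not state whether reads were counted by strand.

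Col20a1, a collagen that associates with fibrils, was at 8.95, 8.92 and 8.75 (Tnaive), 8.40, 8.38 and 8.27 (Teff), 7.45, 7.17 and 7.20 (Pers1), 7.78, 8.02 and 7.82 (Pers2), 9.52, 9.08 and 9.28 (PAt), 8.999, 8.90 and 8.96 (Arrested). PAt libraries were the highest and Pers1 libraries the lowest, and Col20a1 was lower in the persistent expressors than in PAt and Arrested (log2 fold change -1.55, standard error 0.08, adjusted p = 3.74e-13). Col15a1, a basement membrane collagen, was at 6.14, 6.13 and 6.28 (Tnaive), 6.43, 5.79 and 6.35 (Teff), 7.42, 7.53 and 7.49 (Pers1), 8.08, 7.80 and 8.01 (Pers2), 8.03, 7.78 and 7.78 (PAt), 7.34, 7.20 and 7.01 (Arrested). The 12 Timer+ libraries all lay above the 6 Timer- libraries. Col15a1 was higher in the persistent expressors than in Teff (log2 fold change 1.53, standard error 0.12, adjusted p = 8.24e-10) and in PAt and Arrested than in Tnaive (log2 fold change 1.35, standard error 0.12, adjusted p = 7.79e-09). Both chains of collagen I were members and neither was called. Col1a1 had population means of 5.45 in Tnaive to 6.81 in Pers2, and all 6 persistent libraries were above the other 12 (log2 fold change 0.88 against PAt and Arrested, under the limit of 1). Col1a2 had population means of 2.94 to 3.34. The remaining uncalled collagens were Col7a1, Col10a1, Col16a1, Col18a1, Col23a1 and Col27a1, whose lowest and highest population means differed by 0.22 (Col10a1) to 1.06 (Col7a1).

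Of the 10 Mmp genes, 6 were called, and Mmp9 was called in 5 of the 6 comparisons. Mmp9, gelatinase B, cuts collagen IV and denatured collagens, and lies on chromosome 2 from 164940780 to 164955850. Mmp9 was at 4.71, 4.77 and 4.66 (Tnaive), 6.22, 6.20 and 6.34 (Teff), 7.79, 7.97 and 7.75 (Pers1), 8.99, 9.21 and 8.94 (Pers2), 5.85, 5.69 and 6.34 (PAt), 6.47, 5.99 and 6.01 (Arrested). Pers2 libraries were the highest, Pers1 libraries came next, and the other 12 were lower, Tnaive the lowest. Mmp9 was higher in the persistent expressors than in PAt and Arrested (log2 fold change 2.38, standard error 0.11, adjusted p = 3.29e-14) and than in Teff (log2 fold change 2.19, standard error 0.13, adjusted p = 5.98e-12), and higher in Pers2 than in Pers1 (log2 fold change 1.21, standard error 0.15, adjusted p = 2.19e-05). It rose in Teff against Tnaive (log2 fold change 1.54, standard error 0.15, adjusted p = 1.54e-08) and in PAt and Arrested against Tnaive (log2 fold change 1.35, standard error 0.13, adjusted p = 1.71e-08). Mmp9 is also known from neutrophils. Of 7 neutrophil markers 2 were measured, Ltf at 0.02 to 0.14 and Camp at 0.48 to 0.63 on the log2 scale, and the part of such cells in the Mmp9 values of these CD4+ sorted samples was not tested.

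The summed level of epithelial markers was also highest in Pers2. Of 7 listed, 3 were measured, with a summed level of 485.9 to 575.6 in Pers2 and 100.7 to 307.5 in the other libraries. Epcam, an adhesion protein of epithelia, was at 6.35, 5.67 and 6.45 (Tnaive), 6.41, 6.10 and 6.18 (Teff), 7.81, 7.63 and 7.59 (Pers1), 9.05, 8.79 and 8.86 (Pers2), 7.66, 7.45 and 7.76 (PAt), 7.14, 6.69 and 6.46 (Arrested). Pers2 libraries were the highest for Epcam, as for Mmp9, and also for Krt18, at 4.01 to 4.21 in Pers2 and 3.84 to 3.96 in Pers1. Cdh1, the third, was highest in Teff, at 7.07 to 7.72, and stood at 4.63 to 4.78 in Pers2. The part of epithelial cells in the values of Mmp9, and of Lama5 with its highest values in PAt, was not tested.

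Mmp25, a membrane-anchored protease of leukocytes, was at 4.80, 4.90 and 4.84 (Tnaive), 6.47, 6.77 and 6.77 (Teff), 6.70, 6.64 and 6.84 (Pers1), 7.09, 7.14 and 7.17 (Pers2), 5.89, 5.88 and 6.21 (PAt), 5.78, 5.41 and 6.04 (Arrested). Tnaive libraries were the lowest and Pers2 libraries the highest. Mmp25 rose in Teff against Tnaive (log2 fold change 1.82, standard error 0.14, adjusted p = 2.41e-10). It was also higher in the persistent expressors than in PAt and Arrested (log2 fold change 1.06, standard error 0.10, adjusted p = 3.46e-09, but 0.98 without Arrested replicate 2), and in PAt and Arrested than in Tnaive (log2 fold change 1.02, standard error 0.12, adjusted p = 2.98e-07). The last call was lost without Tnaive replicate 1 (1.00, just under the limit), PAt replicate 3 (0.97) or Arrested replicate 3 (0.94), and both were lost with libraries centred on their medians (1.00, just under the limit, and 0.94). Mmp14, the membrane protease that activates pro-Mmp2, was at 6.34, 5.97 and 5.94 (Tnaive), 6.43, 6.27 and 6.23 (Teff), 7.29, 7.20 and 7.47 (Pers1), 7.18, 7.39 and 7.66 (Pers2), 7.30, 6.88 and 7.28 (PAt), 7.51, 7.39 and 7.19 (Arrested). All Timer+ libraries were above all Timer- libraries. Mmp14 was higher in the persistent expressors than in Teff (log2 fold change 1.06, standard error 0.13, adjusted p = 4.16e-07, 0.99 without Pers2 replicate 3 and 1.00, just under the limit, after centring) and in PAt and Arrested than in Tnaive (log2 fold change 1.18, standard error 0.13, adjusted p = 1.08e-07).

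Mmp11 and Mmp15 went down. Mmp11, stromelysin-3, was at 7.82, 7.60 and 7.24 (Tnaive), 5.85, 6.08 and 5.60 (Teff), 5.83, 5.87 and 6.02 (Pers1), 6.34, 5.94 and 6.10 (Pers2), 8.32, 8.20 and 8.02 (PAt), 7.92, 7.89 and 7.61 (Arrested). The lowest library of Tnaive, PAt and Arrested was at 7.24 and the highest of Teff, Pers1 and Pers2 at 6.34. Mmp11 fell in Teff against Tnaive (log2 fold change -1.71, standard error 0.15, adjusted p = 4.01e-09) and was lower in the persistent expressors than in PAt and Arrested (log2 fold change -1.98, standard error 0.11, adjusted p = 9.31e-13). Its exons share 155 bp with Chchd10 on the opposite strand, and the sources used here do not state whether reads were counted by strand. Mmp15, a membrane-anchored protease, was at 6.72, 6.88 and 6.98 (Tnaive), 5.74, 5.72 and 5.60 (Teff), 5.31, 5.42 and 5.13 (Pers1), 5.43, 5.29 and 5.47 (Pers2), 6.47, 6.58 and 6.53 (PAt), 6.14, 6.48 and 6.40 (Arrested). It fell in Teff against Tnaive (log2 fold change -1.18, standard error 0.11, adjusted p = 1.12e-08) and was lower in the persistent expressors than in PAt and Arrested (log2 fold change -1.09, standard error 0.08, adjusted p = 9.37e-11), without overlap in either comparison. Mmp10, stromelysin-2, was at 3.79, 3.76 and 3.75 (Tnaive), 4.95, 4.68 and 4.69 (Teff), 4.76, 4.73 and 4.64 (Pers1), 4.32, 4.10 and 4.10 (Pers2), 3.82, 3.85 and 3.81 (PAt), 4.05, 3.85 and 3.82 (Arrested), and passed the limit just in Teff against Tnaive (log2 fold change 1.01, standard error 0.09, adjusted p = 5.49e-09, but 0.92 without Teff replicate 1 and 0.93 after centring). Mmp17, Mmp19, Mmp23 and Mmp24 were called in no comparison, and the exons of Mmp19 and Mmp24 share 22.3% and 13.6% of their length with genes of the opposite strand. Timp2, which inhibits metalloproteinases and also takes part in activating pro-Mmp2, was at 10.85, 10.84 and 10.88 (Tnaive), 12.29, 12.18 and 12.18 (Teff), 11.89, 11.90 and 11.87 (Pers1), 11.97, 11.95 and 11.88 (Pers2), 10.86, 10.91 and 10.89 (PAt), 11.13, 10.96 and 10.98 (Arrested). The Timp2 libraries of Teff, Pers1 and Pers2 all lay above the other 9, and it rose in Teff against Tnaive (log2 fold change 1.36, standard error 0.05, adjusted p = 3.11e-15). Its difference between persistent expressors and PAt and Arrested, 0.95, stayed under the limit. Timp1 had population means of 3.46 to 3.72 and was called nowhere.

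Among the 16 Adam genes, 6 were called. Adam8, a leukocyte protease that sheds surface proteins, lies on chromosome 7 from 139978932 to 139992562. Adam8 was at 6.21, 6.61 and 6.48 (Tnaive), 8.99, 9.34 and 9.33 (Teff), 10.20, 10.00 and 10.12 (Pers1), 9.82, 9.86 and 9.91 (Pers2), 7.39, 7.31 and 7.72 (PAt), 7.06, 7.00 and 7.20 (Arrested). Pers1 and Pers2 libraries were the highest, Teff libraries came next, and Tnaive libraries were below all others. Adam8 rose in Teff against Tnaive (log2 fold change 2.79, standard error 0.13, adjusted p = 4.86e-14) and was higher in the persistent expressors than in PAt and Arrested (log2 fold change 2.70, standard error 0.09, adjusted p = 2.49e-16). Adam19, a sheddase known for cutting neuregulin, was at 11.42, 11.02 and 11.08 (Tnaive), 13.12, 13.18 and 13.10 (Teff), 13.44, 13.45 and 13.33 (Pers1), 13.57, 13.49 and 13.44 (Pers2), 13.19, 13.15 and 13.10 (PAt), 13.01, 12.92 and 12.80 (Arrested). The 3 Tnaive libraries lay below the other 15, which began at 12.80. Adam19 rose in Teff (log2 fold change 1.96, standard error 0.08, adjusted p = 4.73e-15) and was higher in PAt and Arrested than in Tnaive (log2 fold change 1.85, standard error 0.07, adjusted p = 1.05e-15). Its persistent expressors exceeded PAt and Arrested cells by 0.42 only, under the limit. Exons of Adam19 overlap those of the antisense genes Gm16033 and Gm16034, over 587 and 480 bp.

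Adam12, a sheddase of growth factors, was at 5.12, 5.01 and 4.86 (Tnaive), 5.29, 5.86 and 5.70 (Teff), 6.69, 6.61 and 6.41 (Pers1), 6.89, 6.91 and 7.00 (Pers2), 6.47, 6.27 and 6.24 (PAt), 6.64, 5.97 and 6.46 (Arrested). All Timer+ libraries were above all Timer- libraries. Adam12 was higher in PAt and Arrested than in Tnaive (log2 fold change 1.35, standard error 0.13, adjusted p = 2.96e-08) and in the persistent expressors than in Teff (log2 fold change 1.14, standard error 0.13, adjusted p = 3.08e-07, 0.97 without Teff replicate 1). Adam6b, a gene that lies within the immunoglobulin heavy chain locus, was at 6.43, 7.05 and 6.85 (Tnaive), 5.56, 5.72 and 5.37 (Teff), 6.69, 6.57 and 6.58 (Pers1), 7.08, 7.33 and 7.62 (Pers2), 5.75, 6.08 and 5.88 (PAt), 6.02, 5.58 and 6.32 (Arrested). Teff libraries were the lowest, overlapping Arrested libraries, and Pers2 libraries were the highest. Adam6b fell in Teff against Tnaive (log2 fold change -1.23, standard error 0.18, adjusted p = 4.77e-06) and was higher in the persistent expressors than in PAt and Arrested (log2 fold change 1.04, standard error 0.13, adjusted p = 2.56e-07) and than in Teff (log2 fold change 1.43, standard error 0.15, adjusted p = 8.03e-08). The middle value fell under the limit without PAt replicate 1 (1.00, just under), Arrested replicate 2 (0.94) or Pers2 replicate 3 (0.97) and after centring (0.97). Adam6a, 51850 bp away, is nearly identical in sequence, so the division of reads between the pair is uncertain; Adam6a was not called, with population means of 3.37 to 3.87. The sheddases Adam10 and Adam17, which cut Notch and TNF, were even, with population means of 12.02 to 12.66 and of 11.22 to 11.99. Adam9 was high in every Pers2 library against Tnaive libraries, with means of 7.72 to 8.92, but was called in no comparison. Adam1a, Adam1b, Adam4, Adam15, Adam22 and Adam28 were called in none either. Adam1a and Adam1b are close copies, and 63.7% of the exon length of Adam1a is shared with Gm42878 on the same strand.

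Of the 7 Adamts genes, 4 were called. Adamts14, a procollagen N-proteinase, was at 8.53, 8.59 and 8.40 (Tnaive), 5.93, 6.31 and 5.69 (Teff), 4.49, 4.30 and 4.56 (Pers1), 4.21, 4.49 and 4.21 (Pers2), 4.62, 4.86 and 4.65 (PAt), 5.29, 5.31 and 5.54 (Arrested). Tnaive libraries stood above all others and Teff libraries came next. Adamts14 fell in Teff (log2 fold change -2.53, standard error 0.14, adjusted p = 1.14e-12) and in PAt and Arrested (log2 fold change -3.46, standard error 0.12, adjusted p = 5.25e-16) against Tnaive, and was lower in the persistent expressors than in Teff (log2 fold change -1.60, standard error 0.12, adjusted p = 2.31e-10). Adamts6, a secreted protease of the same family, lies on chromosome 13 from 104287835 to 104496695 and was at 10.28, 10.24 and 10.20 (Tnaive), 10.79, 11.17 and 11.00 (Teff), 10.58, 10.76 and 10.48 (Pers1), 10.60, 10.98 and 10.75 (Pers2), 12.15, 12.26 and 11.97 (PAt), 11.65, 11.53 and 11.61 (Arrested). PAt libraries were the highest, Arrested libraries came next and Tnaive libraries were the lowest. Adamts6 was higher in PAt and Arrested than in Tnaive (log2 fold change 1.62, standard error 0.09, adjusted p = 7.88e-13) and lower in the persistent expressors than in PAt and Arrested (log2 fold change -1.17, standard error 0.07, adjusted p = 4.00e-12). Adamtsl4, a fibrillin-binding protein without a protease domain, was at 8.80, 8.75 and 8.86 (Tnaive), 8.37, 8.37 and 8.29 (Teff), 9.22, 8.93 and 8.997 (Pers1), 9.32, 9.43 and 9.34 (Pers2), 10.53, 10.35 and 10.41 (PAt), 10.18, 9.94 and 9.99 (Arrested). It was higher in PAt and Arrested than in Tnaive (log2 fold change 1.43, standard error 0.08, adjusted p = 7.27e-13) and lower in the persistent expressors than in PAt and Arrested (log2 fold change -1.03, standard error 0.06, adjusted p = 4.05e-12). The second value was -0.99 without Arrested replicate 1, and was also just under the limit in size without Pers1 replicate 2. Adamts10, Adamts13 and Adamts17 were called nowhere, and Adamts13, the protease of von Willebrand factor, varied the least of them, with population means of 12.82 to 13.05.

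For Adam11, Adam23, Adamts3 and Adamts20, all Teff libraries lay above all other libraries. Adam11 and Adamts3 were also called lower in PAt and Arrested than in Tnaive (log2 fold changes -1.13 and -1.41). Adam23 and Adamts3 were called lower in the persistent expressors than in Teff (log2 fold changes -3.68 and -2.67). Adam11 and Adam23 are family members without protease activity that bind Lgi proteins in the nervous system. Adam11 was at 5.63, 5.66 and 5.05 (Tnaive), 10.51, 10.78 and 10.22 (Teff), 4.75, 5.27 and 4.39 (Pers1), 3.92, 3.95 and 4.20 (Pers2), 4.41, 4.48 and 4.06 (PAt), 4.31, 4.16 and 4.45 (Arrested). The lowest Teff library was at 10.22 and the highest of the other 15 at 5.66, a change of 5.06 on the log2 scale against Tnaive (standard error 0.20, adjusted p = 4.09e-15) and of -6.09 from Teff to the persistent expressors. Adam23 was at 4.84, 4.50 and 4.16 (Tnaive), 7.44, 7.71 and 7.61 (Teff), 4.02, 4.27 and 3.84 (Pers1), 3.77, 3.93 and 3.58 (Pers2), 4.06, 3.68 and 3.64 (PAt), 3.70, 4.07 and 3.79 (Arrested). Again only Teff libraries were high (log2 fold change 3.09, standard error 0.16, adjusted p = 4.25e-13). Adamts3, another procollagen N-proteinase, was at 6.09, 6.34 and 6.38 (Tnaive), 8.17, 8.23 and 8.33 (Teff), 5.91, 5.63 and 5.72 (Pers1), 5.58, 5.34 and 5.29 (Pers2), 4.84, 4.60 and 4.58 (PAt), 5.29, 4.83 and 5.04 (Arrested), with Teff libraries the highest and Tnaive libraries next (log2 fold change 1.97, standard error 0.13, adjusted p = 2.65e-11). Adamts20, a protease of versican, was at 3.88, 3.88 and 3.87 (Tnaive), 5.13, 5.13 and 5.30 (Teff), 4.13, 4.35 and 4.11 (Pers1), 4.12, 4.43 and 4.20 (Pers2), 4.15, 4.63 and 4.24 (PAt), 4.60, 4.09 and 4.26 (Arrested), higher in Teff than in Tnaive (log2 fold change 1.31, standard error 0.13, adjusted p = 2.02e-08).

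Adamtsl2, the single member counted as high in 1 library, was also highest in Teff. Adamtsl2 was at 4.17, 4.22 and 4.33 (Tnaive), 5.54, 5.20 and 4.91 (Teff), 4.00, 3.98 and 4.35 (Pers1), 4.00, 3.97 and 4.04 (Pers2), 4.85, 4.54 and 4.70 (PAt), 5.07, 4.73 and 4.86 (Arrested). Teff replicate 1 lay 1.09 above the median of all 18 libraries, which was 4.45, and no other library reached 1. The 3 Teff libraries nevertheless exceeded all 6 persistent libraries, and the difference was called (log2 fold change of persistent expressors against Teff -1.16, adjusted p = 3.00e-08). Below the limit on the mean, Mmp12, a macrophage elastase, was the single gene of 26 that met the same rule. It was at 2.98, 3.51 and 2.87 in Teff and at 2.25 to 2.33 in all other libraries. All 3 Teff libraries thus lay above the rest, though by less than 1.

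All populations were sorted as CD4+ cells, yet the summed markers of dendritic cells, macrophages and B cells were highest in the same 3 Teff libraries. The 7 dendritic cell markers were all measured, with a summed level of 4740 to 6470 in Teff and 1440 to 2309 in the other libraries. Of these, 6 of 7 had their highest population mean in Teff. Siglech, which defines plasmacytoid dendritic cells, was at 3.93, 3.79 and 3.82 (Tnaive), 10.78, 10.93 and 10.16 (Teff), 4.38, 4.54 and 3.99 (Pers1), 3.58, 3.61 and 3.53 (Pers2), 4.01, 4.39 and 3.68 (PAt), 4.57, 3.58 and 3.76 (Arrested), like Adam11 high in Teff libraries alone. The 9 macrophage and monocyte markers summed to 1625 to 2050 in Teff and 330.2 to 721.6 elsewhere. By population mean 9 of 9 were highest in Teff, although Cd14 stayed below 0.6. Single libraries outside Teff were higher for C1qa (3.26 in Pers1 replicate 2) and C1qc (3.33 in Arrested replicate 1). The 6 B-cell markers summed to 6546 to 9453 in Teff, and 5 of 6 had their highest mean in Teff. Their sum came next in PAt (4219 to 5180) and Arrested (3436 to 4109). It was lower in Pers1 (2405 to 2650), Pers2 (2355 to 2713) and Tnaive (883.1 to 1284). Cd79b, the exception, had its highest mean in PAt, at 9.92 to 10.17, overlapping Teff at 9.40 to 10.15. Of 5 endothelial markers measured of 9 listed, 2 were highest in Teff, Cdh5 at 6.21 to 7.13 and Kdr at 4.79 to 4.92, although the summed level, mostly Pecam1, was higher in Tnaive (8116 to 8655) than in Teff (6944 to 7502). The part of these cells in the values of Adam11, Adam23, Adamts3, Adamts20, Adamtsl2, Mmp10, Mmp12 and Timp2 was not tested. The same holds for the other members that rose in Teff, among them Adam8, Mmp9 and Mmp25. The part of B cells in the values of members highest in PAt, among them Lama5, Adamts6 and Adamtsl4, was not tested either. Lama5 and Adamtsl4 had their lowest population means in Teff, at 4.92 and 8.34, where the B-cell sum was highest.

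**Figure D4:**
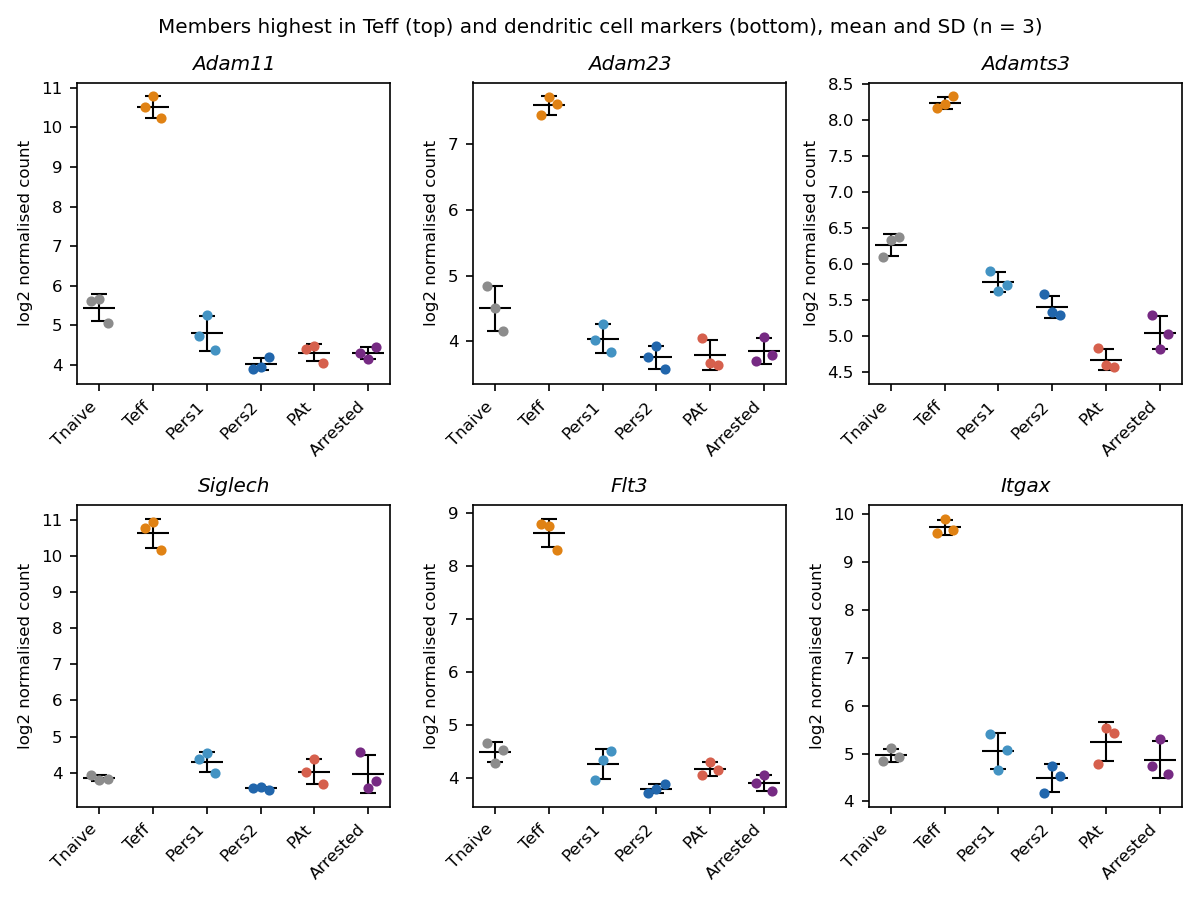
Log2 normalised counts of Adam11, Adam23 and Adamts3 (top) and of the dendritic cell markers Siglech, Flt3 and Itgax (bottom) in each library by population, with mean and SD of 3 libraries; the vertical axes differ and do not start at 0. In all 6 panels the 3 Teff libraries lie above the other 15.

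The change from naive to effector cells among Timer- cells and the difference between persistent expressors and PAt and Arrested cells among Timer+ cells share no library, and the members' values can be set side by side. The part of dendritic cells, macrophages and B cells in the Teff values was not tested. Called higher in both were 4 members, against 2.82% of tested genes, namely Adam8 (2.79 and 2.70 on the log2 scale), Lamc1 (2.19 and 2.10), Mmp9 (1.54 and 2.38) and Mmp25 (1.82 and 1.06). Called lower in both were 3, against 0.879%, namely Col11a2 (-2.07 and -2.05), Mmp11 (-1.71 and -1.98) and Mmp15 (-1.18 and -1.09). Adam6b was called in opposite directions, -1.23 and 1.04, against 0.311% of tested genes. A test of the difference between the 2 shifts, added after the data were seen, called 11 of the 54 members, against 8.42% of tested genes. It did not call the difference for Adam8, where the 95% interval of the Timer+ minus the Timer- shift ran from -0.40 to 0.24. The interval was -0.34 to 0.15 for Lamc1, -0.26 to 0.29 for Col11a2, -0.66 to 0.12 for Mmp11 and -0.20 to 0.37 for Mmp15. Mmp9 (0.46 to 1.22) and Mmp25 (-1.11 to -0.41) had shifts of unequal size with adjusted p of 0.000712 and 0.000795, under the limit of 1 on the difference. Adam17 shifted by 0.45 in both, with an interval of -0.12 to 0.12.

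**Figure D5:**
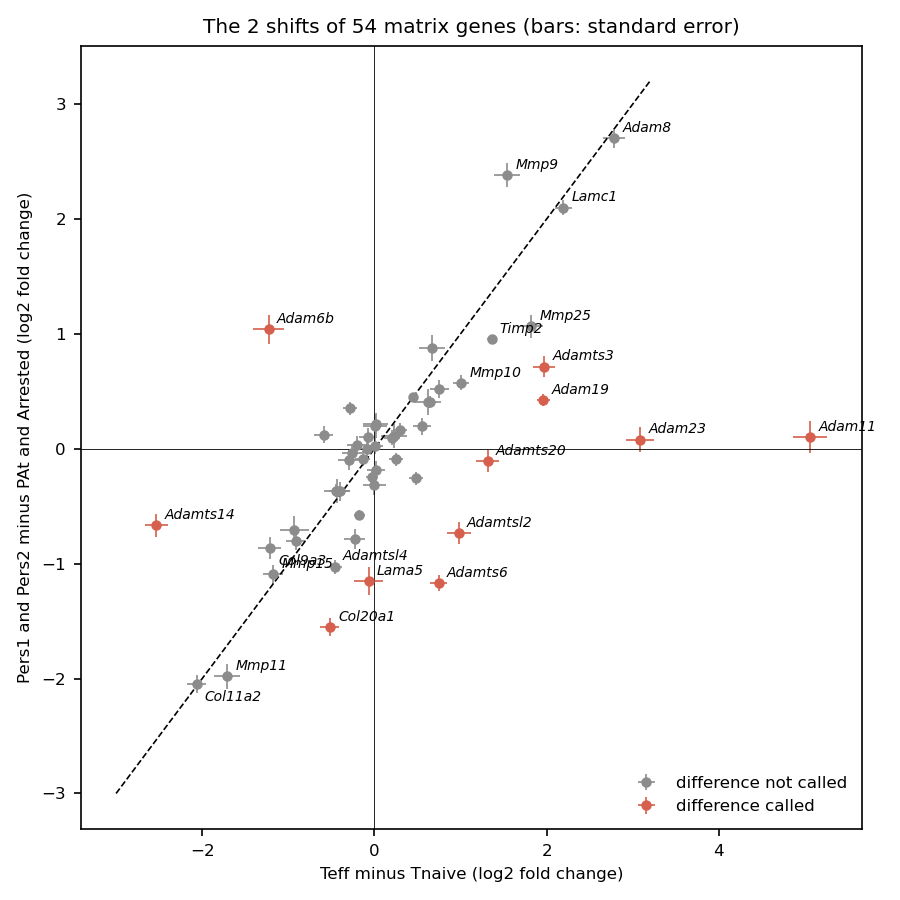
Log2 fold change of Teff against Tnaive (horizontal) and of Pers1 and Pers2 against PAt and Arrested (vertical) for the 54 members, with standard errors; the dashed line marks equal shifts. Adam8, Lamc1, Col11a2 and Mmp15 lie close to the line, and Adam11 and Adam23 lie far to its right with vertical values near 0.

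RefSeq sequences before a gene's start (GRCm38.p6) matched 40 of the 54 members and 19 of the 25 called. Shown are the 250 bases before a start for Adam8 and Adam19, which rose in Teff, and for Col11a2 and Mmp11, which fell in Teff and were low in the persistent expressors. They are given 5′ to 3′ on the strand of the gene, with capitals for letters that match a searched motif. The Adam8 stretch is chr7:139992563-139992812 (minus strand), that of Adam19 chr11:46055734-46055983 (plus strand), that of Col11a2 chr17:34038888-34039137 (plus strand) and that of Mmp11 chr10:75932503-75932752 (minus strand).
Adam8: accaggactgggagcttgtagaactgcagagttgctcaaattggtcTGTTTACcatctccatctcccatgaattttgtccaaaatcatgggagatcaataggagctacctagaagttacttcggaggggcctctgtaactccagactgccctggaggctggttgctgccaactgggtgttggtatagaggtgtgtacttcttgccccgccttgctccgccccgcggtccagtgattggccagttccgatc
Adam19: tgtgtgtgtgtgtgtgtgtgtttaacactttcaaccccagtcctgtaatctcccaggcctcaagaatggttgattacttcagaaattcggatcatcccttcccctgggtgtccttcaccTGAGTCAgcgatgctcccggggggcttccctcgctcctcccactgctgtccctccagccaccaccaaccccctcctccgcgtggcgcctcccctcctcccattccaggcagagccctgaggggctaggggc
Col11a2: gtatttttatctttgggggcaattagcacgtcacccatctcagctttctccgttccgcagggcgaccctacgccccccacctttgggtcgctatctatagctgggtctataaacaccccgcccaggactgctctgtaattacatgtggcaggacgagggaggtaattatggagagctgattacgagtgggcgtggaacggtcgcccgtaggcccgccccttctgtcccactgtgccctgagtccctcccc
Mmp11: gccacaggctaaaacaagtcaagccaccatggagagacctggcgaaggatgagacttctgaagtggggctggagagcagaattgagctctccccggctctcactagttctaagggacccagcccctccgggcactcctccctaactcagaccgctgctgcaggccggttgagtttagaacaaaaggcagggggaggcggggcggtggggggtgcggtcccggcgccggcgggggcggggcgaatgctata
Searched on both strands were AP-1 (TGANTCA), NF-kappaB (GGG, any pair of bases, TTTCC), Runx (TGTGGT), forkhead (TGTTTAC) and TCF (ATCAAAG). The Adam8 stretch held the forkhead letters with their first base at -204 from the start, and the Adam19 stretch held the AP-1 letters at -131. The stretches of Col11a2 and Mmp11 held none of the 5. The RefSeq starts used for these 2 genes differ from those of GENCODE vM21. Mmp11 runs from 75923222 to 75936496 in GENCODE, so its stretch lies inside the gene. The Col11a2 stretch ends at 34039137, and the GENCODE start of Col11a2 is 34039437. The 250 bases before each of all 32851 RefSeq starts held the AP-1 letters in 6.75%, NF-kappaB in 1.41%, Runx in 14.0%, forkhead in 3.17% and TCF in 3.21%. Of the 40 members, 2 held AP-1 letters, 0 NF-kappaB, 6 Runx, 3 forkhead and 0 TCF at some start. AP-1 or forkhead letters were held by Adam8, Adam19 and Mmp10 only. The stretches shown are a picked few and make no contrast between rising and falling members. A match of letters is a description and no sign that a factor binds.

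Other genes of matrix biology were listed as matrix proteins, collagen processing enzymes, regulators of metalloproteases and matrix receptors, 79 in all, of which 51 were tested. In Teff against Tnaive 8 of 51 were called higher and 5 lower, against 8.88% and 2.28% of all tested genes. In the persistent expressors against PAt and Arrested 4 were higher and 4 lower, against 4.74% and 2.77%. Against Teff the persistent expressors had 4 higher and 2 lower, against 4.28% and 4.03%, and PAt and Arrested against Tnaive had 9 higher and 2 lower, against 6.63% and 1.27%. Sdc4 was the single gene called in Pers2 against Pers1 (higher) and in Arrested against PAt (lower). Nid2, a basement membrane protein that binds laminin, was called higher in the 4 other comparisons and is singled out after its values were seen. Its population means were 4.88 (Tnaive), 6.64 (Teff), 8.56 (Pers1), 8.87 (Pers2), 6.20 (PAt), 5.83 (Arrested), the same order as Lamc1 except among Teff, PAt and Arrested. Itgb1, the beta 1 chain of collagen and laminin receptors, rose in Teff (log2 fold change 4.69), and Itga2, the alpha 2 chain of the collagen receptor, was higher in the persistent expressors than in PAt and Arrested (2.21). Ecm1, a secreted matrix protein, was lower in Teff than in Tnaive (-1.41) and in the persistent expressors than in PAt and Arrested (-1.11), and higher in the persistent expressors than in Teff (2.57) and in PAt and Arrested than in Tnaive (2.27). Cd44, a receptor of hyaluronan, was among the genes higher in Teff, and was used to sort Teff from Tnaive cells.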

How the data were processed

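Per the labels and the study's methods, RNA of sorted cells was made into stranded mRNA libraries. The submitters' processing notes name CASAVA 1.8.2, FastQC 0.11.2, TopHat2 2.0.9, DESeq2 and mm10. The values that the authors deposited are normalised counts on a log2 scale, from -0.02 to 18.89 with 173 negative, in a form that resembles DESeq2's regularised log. They are not counts, so limma 3.58.1 in R 4.3.3 was run on them as deposited, without a pseudocount, on the 13190 genes with a mean of at least 3. The model held 6 populations (12 residual degrees of freedom), a variance trend and no block. P-values were adjusted by Benjamini-Hochberg over all tested genes. The model was tested on simulated data with known changes. Depth is unknown, so precision rests on replicate spread.

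Members, lists and tests were chosen with earlier results of these data known. A further gene that matched the symbols is not reported here and enters no count of members. Library values are given for members called without overlap in at least 1 comparison and for those high in a single library. Coordinates are from GENCODE vM21. Alternatives covered the filter, samples, moderation, scaling, threshold, block and left-out libraries. Figures used Python and matplotlib.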

Additional observations from a re-analysis of the deposited data

Results flagged for a closer look

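Among the 54 members, 11 had a shift from PAt and Arrested to persistent Timer+ cells that differed from the shift from Tnaive to Teff cells, by a limma test of the difference (adjusted p under 0.05 and a difference over 1 on the log2 scale). The test was added after the data were seen, and 8.42% of all tested genes passed it. The Timer+ shift minus the Timer- shift was -4.96 for Adam11, -3.01 for Adam23, -1.42 for Adamts20, -1.26 for Adamts3 and -1.72 for Adamtsl2. These were the members among the 11 that were highest in Teff, where the summed markers of dendritic cells, macrophages and B cells were also highest. For Adam19 it was -1.53, as Adam19 rose by 1.96 in Teff and differed by 0.42 between Timer+ populations. Adamts6 (-1.92), Col20a1 (-1.03) and Lama5 (-1.08) were lower in the persistent expressors than in PAt and Arrested, without a called change in Teff. The difference was 1.86 for Adamts14, which fell by 2.53 in Teff and differed by -0.67 between Timer+ populations. For Adam6b it was 2.27, with shifts in opposite directions.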

How the results depend on the processing

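Counts of called members stayed within 1.5 times their values, in the runs without a filter, with a mean of at least 5, with fewer libraries in the fit, without the variance trend, with robust moderation and with libraries centred on their medians. Centring gave 10 members for persistent expressors against PAt and Arrested and 12 for PAt and Arrested against Tnaive, and moved the median of all genes by -0.08 to 0.03. Without a limit on the fold change, the counts were 38 (Teff against Tnaive), 38 (persistent expressors against PAt and Arrested), 37 (persistent expressors against Teff), 33 (PAt and Arrested against Tnaive), 8 (Pers2 against Pers1), 7 (Arrested against PAt) and 25 (difference of shifts), since weaker changes then count. Leaving out 1 library gave 16 to 19, 10 to 12, 10 to 13, 12 to 13, 1 to 2, 0 to 0 and 10 to 11 members in the same order. It gave 23 to 26 members high in every library and 0 to 2 high in a single library. The former count was 35 with a gap of 0.5, 17 with a gap of 1.5, 22 after centring and 21 with a mean of at least 5. The latter count was 2 with a gap of 0.5, 0 with a gap of 1.5 and 0 with a mean of at least 5, which Adamtsl2 does not reach. Of the fold changes of called members, 8 fell under the limit of 1 in some run (19 values in all) and 0 turned in direction. With the replicate block the counts were 17, 12, 12, 13, 2, 0 and 11, as without it. The description has all populations sorted from each mouse but does not say that a number marks 1 pool. Deviations from population means had a median correlation of 0.17 in 45 pairs with the same number (-0.21 to 0.44) and -0.06 in 90 others, and 17 of 18 libraries correlated best with their own number. Unknown depth and the pull of low values limit what Col1a2, Lamb2 and other low members can show.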
